A study of Rattus norvegicus with 6 samples.

Results

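The genes described are the collagens, laminins, elastic fibre and microfibril proteins, lysyl oxidases, thrombospondins, and the adhesive proteins Fn1, Sparc, Postn and Vcan, measured in non-tumor rat liver on Illumina bead arrays. They were taken by gene symbol from the platform annotation, which gave 55 probes for 53 genes among 13337 named genes. Each gene is read at its brightest probe. Of the 53 genes, 39 lay above the filter on dim probes and were tested, and 14 did not. The rule also takes in symbols that name no secreted matrix protein: Mfap1a, a nuclear splicing protein, and Mfap3 and Mfap3l, which are membrane proteins. Under the annotation used here no probe carried the symbols Col4a2, Col6a3, Lama5, Lamb1, Nid1, Thbs1 or Tnc.

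Both groups were male Wistar rats that had 18 weeks of weekly intraperitoneal injections of diethylnitrosamine (DEN, 50 mg/kg each). DEN is a hepatocarcinogen that leads to fibrosis and liver tumors in rodents. From week 13 to week 18, 3 rats (EGCG_228, EGCG_234 and EGCG_236) had drinking water with 0.02% epigallocatechin gallate (EGCG), a polyphenol of green tea, and 3 (water_224, water_227 and water_237) drank water alone. All were killed in week 19, after 1 week without DEN. No rat without DEN was analysed here, so that the comparison concerns EGCG on top of DEN, and no value can be set against uninjured liver. The model limits the comparison further in that the RNA came from whole tissue outside the tumors.

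Collagens are made as chains that coil into triple helices, are modified by hydroxylases in the endoplasmic reticulum, are secreted, trimmed, and cross-linked outside the cell by lysyl oxidases. In fibrotic liver, activated stellate cells and portal fibroblasts lay down fibrillar collagens I, III and V together with fibronectin and elastic fibres, while a basement membrane of collagen IV and laminin appears along the sinusoids. Fibulins, fibrillins and microfibril-associated proteins organise the elastic fibres.

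Array means of the non-normalized intensities ran from 381.5 to 530.9 and medians from 112 to 120.5. Values below are log2 intensities after background correction and quantile normalization, and a difference is the EGCG mean minus the water mean on that scale, with the moderated standard error (SE) of limma. The number of arrays limits the precision, and for a single gene the exact two-sided permutation p has its floor at 0.1 with 3 rats in each group. The labelled tissue was checked against hepatocyte markers. All 9 with a probe, among them Alb, Ttr and Tf, lay above the filter. Their summed intensity ran from 189395 to 219226 with EGCG and from 198657 to 216245 with water, and 3 of the 9 had a difference below 0.

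Of the 39 tested matrix genes, 1 fell with EGCG at an adjusted p under 0.05 (limma, Benjamini-Hochberg over 13514 probes), and 0 rose. It was Fbln1. Among all 9193 named genes tested, 0.446% were called lower and 0.12% higher, or 0.566% in either direction, shares that moved with single rats left out (5 to 73 lower and 2 to 89 higher calls). At an unadjusted p under 0.05, 14 matrix genes were lower and 0 higher, against 6.31% lower and 5.28% higher among all named genes. The 3 EGCG rats lay entirely below the 3 water rats for 11 of the 39 genes (28.2%) and entirely above them for 0, where 8.23% of all named genes had that pattern downward and 8.25% upward. Without the filter, 11 of the 53 genes (20.8%) showed it, all downward, against 7.31% of all named genes downward and 7.21% upward. The difference was below 0 for 32 of the 39 tested genes (82.1%, against 48.9% of all named genes), and for 39 of all 53 without the filter (73.6%, against 49.5%). The median difference of the tested genes was -0.22, beside 0.004 over all named genes. The count with an unadjusted p under 0.05 and a lower value stayed between 11 and 17 when single rats were left out. In bulk tissue, fewer cells of a type and less RNA per cell cannot be told apart.

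**Figure D1:**
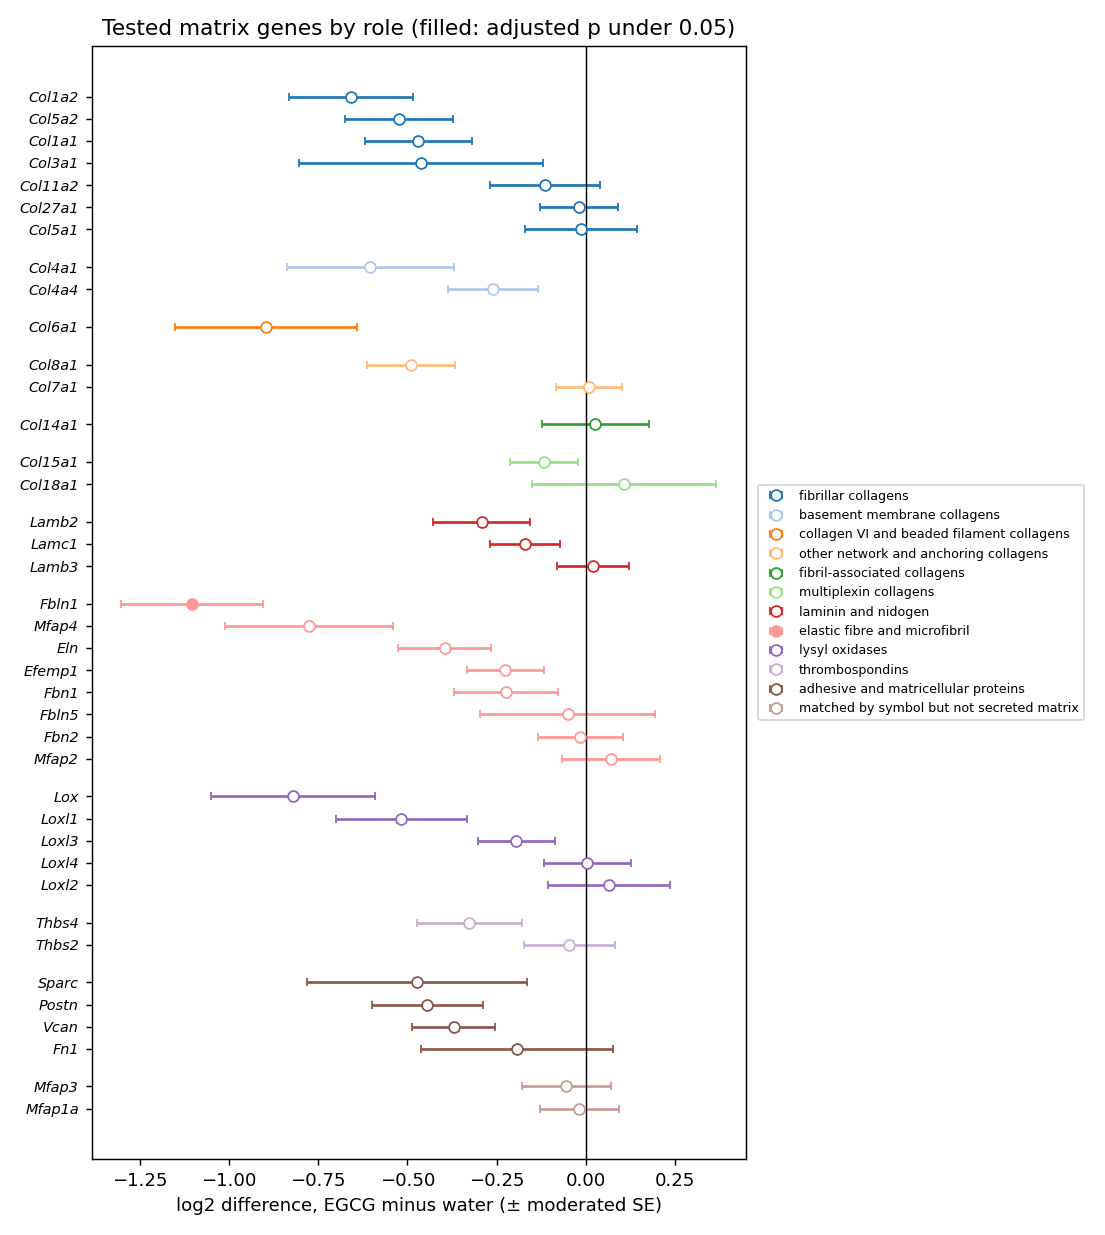
Log2 difference (EGCG minus water, horizontal axis) of the 39 tested matrix genes, grouped by role on the vertical axis, with bars for the moderated SE. Fbln1 at -1.10 is the filled point past the threshold, and 32 of the 39 points lie to the left of 0.

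Fbln1, fibulin 1, binds fibronectin, laminin and elastin and sits in elastic fibres and basement membranes. Its log2 values were 8.75, 8.79 and 8.71 in EGCG_228, EGCG_234 and EGCG_236, and 9.41, 9.93 and 10.22 in water_224, water_227 and water_237. The EGCG rats were almost level with one another, and all lay below the lowest water rat. Fbln1 fell 2.15-fold, the group means being 8.75 ± 0.04 (EGCG) and 9.85 ± 0.41 (water; SD, n = 3 rats a group, difference -1.10, SE 0.20, limma adjusted p = 0.0412). In the non-normalized table the same probe read 463.4, 479.3 and 405.4 with EGCG and 847.2, 1094 and 944.6 with water. The direction held with every rat left out in turn, from -1.32 to -0.92. The call was kept only without water_224, and was lost without EGCG_228, EGCG_234, EGCG_236, water_227 or water_237 (limma adjusted p = 0.139, 0.155, 0.0508, 0.145 and 0.105). Its relative Fbln5, fibulin 5, which tethers elastin to cells, read 7.82, 7.57 and 8.15 with EGCG and 7.475, 7.724 and 8.497 with water, with groups that overlapped throughout (difference -0.05, 95% confidence interval -0.59 to 0.49).

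Among the other elastic fibre genes, Mfap4, a microfibril-associated glycoprotein, read 7.26, 6.95 and 7.66 in EGCG_228, EGCG_234 and EGCG_236 and 7.76, 7.83 and 8.60 in water_224, water_227 and water_237. All EGCG rats lay below all water rats, although water_237 stood well above the other water rats, and the difference of -0.78 (SE 0.24, limma adjusted p = 0.239) shrank to -0.51 without it. Eln, elastin, the stretchable core of the fibre, read 6.64, 6.65 and 6.27 with EGCG and 6.81, 6.87 and 7.06 with water, again without overlap (difference -0.40, SE 0.13, adjusted p = 0.275). Its probe was dim, with non-normalized intensities of 99.04 to 129.4 with EGCG and 146.5 to 148.7 with water. 

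Fbn1, fibrillin 1, the backbone of microfibrils, read 7.49, 7.24 and 7.64 with EGCG and 7.62, 7.56 and 7.86 with water, and EGCG_236 lay among the water rats (difference -0.22, limma adjusted p = 0.673). The Fbn1 difference was -0.11 without EGCG_234 and -0.14 without water_237. Efemp1, fibulin 3, read 6.31, 6.33 and 6.40 with EGCG and 6.73, 6.37 and 6.61 with water, with only EGCG_236 above water_227 (difference -0.23, adjusted p = 0.513, or -0.14 without water_224). Mfap2, a partner of fibrillin, read 6.45, 6.59 and 6.31 with EGCG and 6.69, 6.28 and 6.16 with water, where the highest rat and the lowest were both water rats (difference 0.071, adjusted p = 0.919). Fbn2, fibrillin 2, differed by -0.015 (adjusted p = 0.983), and its second probe, below the filter, by 0.15. Of the 8 tested genes of elastic fibres and microfibrils, 1 fell, 0 rose and 7 did not pass.

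Fibrillar collagens form the banded fibres of scar tissue, and the 7 tested ones all had differences below 0, of which 0 passed. The dim Col2a1 and Col5a3, below the filter, differed by 0.11 and 0.13. Col1a2, the second chain of collagen I, read 10.96, 10.66 and 10.84 in EGCG_228, EGCG_234 and EGCG_236 and 11.53, 11.22 and 11.68 in water_224, water_227 and water_237. Every EGCG rat was below every water rat, and the difference was -0.66 (SE 0.17, limma adjusted p = 0.166), from -0.79 to -0.56 with single rats left out. Col1a1, the other chain of collagen I, read 6.62, 6.33 and 6.69 with EGCG and 7.01, 6.74 and 7.29 with water. The groups again did not overlap, by the narrow margin between EGCG_236 and water_227, and the difference was -0.47 (SE 0.15, adjusted p = 0.266). The Col1a1 probe was dim (non-normalized 109.5 to 170.2), close to the array medians, and a log2 difference is compressed there by the background offset.

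Col5a2, a chain of the collagen V that nucleates collagen I fibrils, read 7.75, 7.58 and 7.83 with EGCG and 8.47, 8.01 and 8.26 with water. The groups did not overlap (difference -0.52, SE 0.15, limma adjusted p = 0.217). Its partner chain Col5a1 did not share this. It read 7.63, 7.79 and 7.36 with EGCG and 7.85, 7.43 and 7.54 with water, with the groups interleaved (difference -0.013, 95% confidence interval -0.36 to 0.34). Whether the chains differ in response was not tested. Col3a1, collagen III, read 9.15, 9.47 and 10.25 with EGCG and 10.31, 9.31 and 10.63 with water. EGCG_236 stood with the high water rats and water_227 with the low EGCG rats, so that the difference of -0.46 (SE 0.34, adjusted p = 0.72) was within the spread, and it was -0.19 without water_237 and -0.85 without water_227. Col11a2 and Col27a1, minor fibrillar collagens best known from cartilage, differed by -0.11 and -0.019.

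Promoter sequence was given for 40 of the 53 genes and is credited to RefSeq, build GRCr8. The sets below are shown because Col1a2, Col4a1 and Col5a2 are collagens whose groups did not overlap, while Col18a1 is a collagen whose groups did. Each is written 5′ to 3′ on the gene's strand and lies within the 250 bases before the annotated start, with capitals for any match, on either strand, to CAGAC (the Smad box), GGGCGG (the GC box), CCAAT (the CCAAT box) or TATAAA (the TATA box). The stretches are chr4:33518307-33518416, plus strand, for Col1a2, chr16:84885347-84885596, plus strand, for Col4a1, chr9:55090152-55090401, minus strand, for Col5a2 and chr20:11473395-11473644, plus strand, for Col18a1.
Col1a2: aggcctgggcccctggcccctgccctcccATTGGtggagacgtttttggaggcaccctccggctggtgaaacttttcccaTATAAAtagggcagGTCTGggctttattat
Col4a1: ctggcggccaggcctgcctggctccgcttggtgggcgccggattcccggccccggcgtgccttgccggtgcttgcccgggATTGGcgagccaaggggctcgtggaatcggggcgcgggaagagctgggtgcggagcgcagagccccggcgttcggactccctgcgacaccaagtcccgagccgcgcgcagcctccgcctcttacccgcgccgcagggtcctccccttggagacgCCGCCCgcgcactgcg
Col5a2: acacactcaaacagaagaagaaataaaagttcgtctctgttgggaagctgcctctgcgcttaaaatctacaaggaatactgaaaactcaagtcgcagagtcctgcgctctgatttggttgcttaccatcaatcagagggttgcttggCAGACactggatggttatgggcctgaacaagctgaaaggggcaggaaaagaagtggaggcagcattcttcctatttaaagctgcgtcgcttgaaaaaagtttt
Col18a1: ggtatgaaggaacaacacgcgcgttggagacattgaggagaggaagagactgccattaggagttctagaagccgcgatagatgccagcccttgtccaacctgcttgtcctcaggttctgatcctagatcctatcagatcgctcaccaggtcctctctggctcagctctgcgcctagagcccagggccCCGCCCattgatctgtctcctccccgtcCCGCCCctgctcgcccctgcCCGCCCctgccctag
Col1a2 held a CCAAT box in reverse, a TATA box and a reverse Smad box in the stretch shown, Col5a2 a single Smad box, Col4a1 a reverse CCAAT box and a reverse GC box, and Col18a1 3 reverse GC boxes. The Col1a2 stretch is 110 bases long and the others are 250. The full 250 bases of Col1a2 held 2 Smad boxes. Col8a1, a matched collagen whose groups did not overlap either, is not shown. Its 250 bases held 4 GC boxes and 1 Smad box. Whether any of these letters goes with the differences was not tested. Over the 250 bases, the Smad box letters were present in 23 of the 40 matched genes (57.5%) and in 42.8% of 27457 promoters of the same length. The GC box was in 20 of 40 (50.0%) and 32.4%, the CCAAT box in 10 of 40 (25.0%) and 34.3%, and the TATA box in 4 of 40, against 13.1%. Of the 11 genes with separate groups, 6 were matched. Of these 6, the Smad box letters were in 4 (42.8% of all promoters) and the GC box in 3 (32.4%). The CCAAT box was in 3 (34.3%) and the TATA box in 1 (13.1%). A match to such short letters is a description of the sequence only.

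Of the other collagens, Col6a1, a chain of the beaded filaments around cells, had the lowest value of any collagen difference. It read 8.53, 7.74 and 7.70 in EGCG_228, EGCG_234 and EGCG_236 and 9.15, 8.40 and 9.12 in water_224, water_227 and water_237. The groups overlapped because EGCG_228 lay above water_227, and the difference was -0.90 (SE 0.26, limma adjusted p = 0.207), or -1.17 without EGCG_228. Col8a1, a short-chain network collagen of vessels, read 7.56, 7.42 and 7.55 with EGCG and 8.07, 7.91 and 8.01 with water. Both groups were tight and apart (difference -0.49, SE 0.12, adjusted p = 0.144), and the difference stayed between -0.53 and -0.45 with any rat left out. It did not pass under any alternative tried (lowest adjusted p = 0.0777).

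Col4a1, the main chain of basement membranes, read 8.57, 8.56 and 8.11 with EGCG and 9.55, 8.60 and 8.90 with water. The groups were separate only by the small gap between EGCG_228 and water_227, and the difference of -0.60 (SE 0.23, limma adjusted p = 0.388) fell to -0.34 without water_224, the highest rat. Col4a4 differed by -0.26 (adjusted p = 0.518) at a dim probe. The fibril-associated collagen and the multiplexins did not pass. Col14a1, which coats collagen I fibrils, read 9.65, 9.88 and 9.69 with EGCG and 9.78, 9.59 and 9.77 with water (difference 0.027, 95% confidence interval -0.31 to 0.36). For Col18a1, a basement membrane collagen that yields endostatin and is made by hepatocytes, the non-normalized intensities were 948.9, 1088 and 538.0 with EGCG and 1264, 826.5 and 480.6 with water. EGCG_236 lay well below the other EGCG rats, and the water rats spread over a wide range as well (log2 difference after normalization 0.11, 95% confidence interval -0.46 to 0.68). Col15a1, its relative, read 6.47, 6.31 and 6.36 with EGCG and 6.59, 6.38 and 6.51 with water, with overlap (difference -0.12, adjusted p = 0.76, or -0.068 without water_224). Col7a1, the collagen of anchoring fibrils, differed by 0.009 (adjusted p = 0.987).

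The laminins are heterotrimers of basement membranes, and 0 of the 3 tested chains passed. Lamb2, the beta-2 chain, read 7.28, 7.13 and 7.15 with EGCG and 7.46, 7.27 and 7.70 with water, with EGCG_228 just above water_227 (difference -0.29, SE 0.14, limma adjusted p = 0.503, or -0.18 without water_237). Lamc1, the gamma-1 chain shared by most laminins, read 6.476, 6.592 and 6.483 with EGCG and 6.588, 6.704 and 6.770 with water, where EGCG_234 just passed water_224 (difference -0.17, adjusted p = 0.615). Lamb3, a chain of epithelial laminin, differed by 0.020. Lama1 and Lamc3 lay below the filter.

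**Figure D2:**
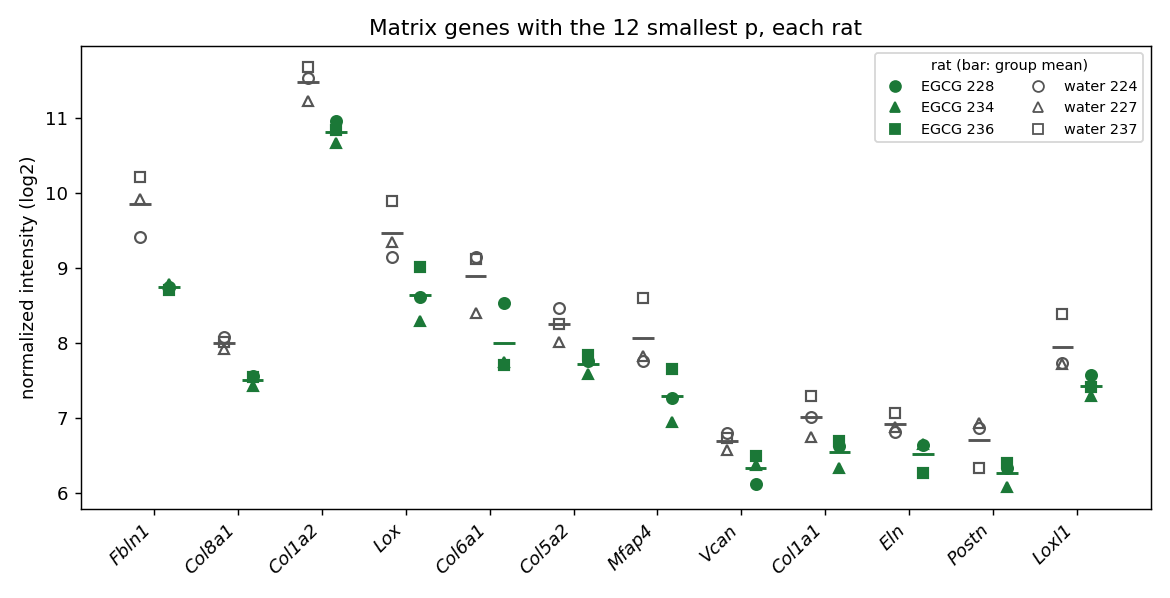
Normalized log2 intensity (vertical axis) of the 12 matrix genes with the smallest unadjusted p, for each EGCG rat (filled) and water rat (open), with bars for group means. The Fbln1 values of the EGCG rats coincide near 8.7 while the water rats spread from 9.41 to 10.22, and the groups overlap only for Col6a1 and Postn.

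The lysyl oxidases oxidise lysines of collagen and elastin so that they can cross-link. Lox, the founding member, read 8.61, 8.29 and 9.02 in EGCG_228, EGCG_234 and EGCG_236 and 9.14, 9.35 and 9.89 in water_224, water_227 and water_237. The groups did not overlap, and the difference was -0.82 (SE 0.23, limma adjusted p = 0.196), from -1.01 to -0.61 with single rats left out. Loxl1, which acts mainly on elastin, read 7.58, 7.30 and 7.42 with EGCG and 7.73, 7.72 and 8.39 with water. Its second probe differed by -0.53, close to the -0.52 of the brighter one (SE 0.18, adjusted p = 0.337), but the brighter probe's difference was -0.30 without water_237. Loxl2, which has been linked to liver fibrosis and acts on collagen IV, read 7.32, 7.26 and 7.38 with EGCG and 7.39, 6.83 and 7.54 with water, so that the EGCG rats lay inside the range of the water rats (difference 0.065, 95% confidence interval -0.32 to 0.45). Loxl3 and Loxl4 differed by -0.20 and 0.005 (adjusted p = 0.606 and 0.997). Thus 0 of the 5 lysyl oxidases passed.

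Fn1, fibronectin, is made by hepatocytes for plasma as well as by matrix-forming cells. It read 12.63, 12.70 and 11.73 with EGCG and 12.80, 12.72 and 12.12 with water. The groups overlapped, with a low rat in each, and the difference of -0.19 (95% confidence interval -0.79 to 0.40) turned to 0.12 without EGCG_236. Sparc, a collagen-binding matricellular protein, read 10.10, 9.63 and 10.12 with EGCG and 11.15, 9.69 and 10.44 with water. Water_224 alone was far above the rest, and the difference of -0.47 (SE 0.31, limma adjusted p = 0.672) was -0.11 without it and -0.84 without water_227. Postn, periostin, a matricellular protein of fibrosis, read 6.33, 6.07 and 6.39 with EGCG and 6.87, 6.93 and 6.33 with water, where water_237 stood with the EGCG rats (difference -0.44, SE 0.16, adjusted p = 0.327). Vcan, the proteoglycan versican, read 6.11, 6.38 and 6.49 with EGCG and 6.79, 6.58 and 6.72 with water, without overlap (difference -0.37, SE 0.12, adjusted p = 0.252). The probes of Postn and Vcan were dim (non-normalized 96.38 to 154 and 96.07 to 145.1), close to the array medians. The thrombospondins are matricellular glycoproteins, and 0 of the 2 tested passed. Thbs2 read 6.39, 6.71 and 6.32 with EGCG and 6.63, 6.32 and 6.61 with water, with the highest rat in the EGCG group (difference -0.046, adjusted p = 0.949). Thbs4 differed by -0.33 (adjusted p = 0.488).

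The 14 genes below the filter were Col2a1, Col5a3, Col4a3, Col4a5, Col6a2, Col6a4, Col9a2, Col13a1, Col17a1, Col23a1, Lama1, Lamc3, Mfap5 and Mfap3l. Several are collagens of cartilage, skin or kidney. Their log2 values ran from 5.75 to 6.61 and their differences from -0.15 to 0.18, and the groups were separate for 0 of them. The files carry no detection call, so that such a probe cannot be called absent.

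After normalization the rats did not contribute equally. Among the 39 tested genes, water_237 was the highest of the 6 rats for 19 and water_224 for 12, but water_227 for 4. The array of water_237 had the lowest mean of non-normalized intensities (381.5), and these ranks were not counted under another scaling. For Col1a2 the non-normalized intensity of water_237 was 2472, below the 3617 of water_224 and the 2692 of water_227, yet its normalized value was the highest. For Lox water_237 was the highest in both (non-normalized 764.9, against 708.6 in water_224 and 744.2 in water_227). EGCG_234 was the lowest for 15 and EGCG_236 for 10, while EGCG_228 and water_227 were the lowest for 5 each. Relative to each gene's water mean, the median gene stood at -0.20 in EGCG_228, -0.25 in EGCG_234 and -0.25 in EGCG_236. It stood at 0.05 in water_224, -0.12 in water_227 and 0.08 in water_237. The medians of the EGCG rats were therefore all below those of the water rats, with water_227 the nearest. Over all named genes the same medians lay between -0.005 and 0.004.

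**Figure D3:**
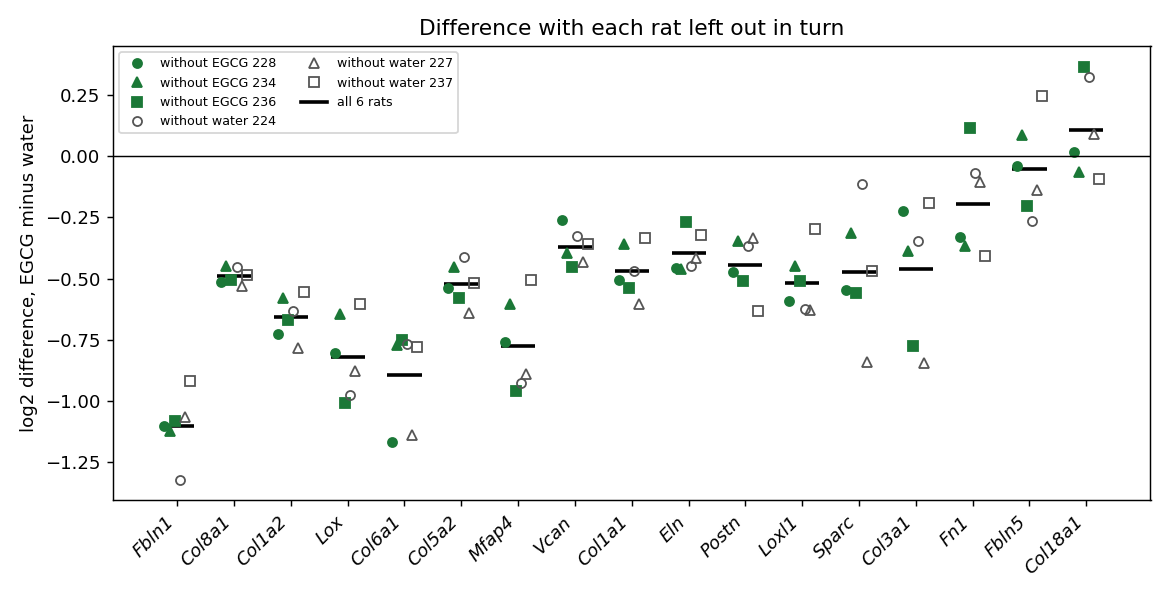
Log2 difference (EGCG minus water, vertical axis) of the 12 genes with the smallest p and of Sparc, Col3a1, Fn1, Fbln5 and Col18a1, with all 6 rats (bar) and with each rat left out (points). Col8a1 stays between -0.53 and -0.45, while Sparc spans -0.84 to -0.11 and Fbln5 and Col18a1 cross 0.

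Genes that modify, fold and trim collagen were set beside the matrix genes. Of the 21 tested, 0 passed, and the median difference was -0.10. The EGCG rats lay entirely below the water rats for 6 of the 21 and entirely above them for 0. Among all named genes, 8.23% had that pattern downward and 8.25% upward. P4ha1, the catalytic chain of prolyl 4-hydroxylase, which stabilises the triple helix, read 8.39, 7.91 and 8.22 with EGCG and 9.01, 8.83 and 8.75 with water (difference -0.69, SE 0.16, limma adjusted p = 0.112). Fkbp10, a collagen chaperone of the endoplasmic reticulum, read 7.853, 7.995 and 8.040 with EGCG and 9.11, 8.35 and 8.66 with water (difference -0.74, SE 0.19, adjusted p = 0.142). Both had separate groups, as did Plod2, the hydroxylase of telopeptide lysines that Lox then oxidises (-0.63, adjusted p = 0.214), and Pcolce, an enhancer of procollagen cleavage (-0.44, adjusted p = 0.202). Crtap and Ppib had separate groups too (-0.29 and -0.22, limma adjusted p = 0.452 and 0.688). Adamts2 and P4hb differed by -0.575 and -0.24 with overlapping groups (adjusted p = 0.253 and 0.683). The relatives of P4ha1 and Plod2 lay closer to 0. P4ha2 differed by -0.047, Plod1 by -0.095 and Plod3 by -0.049, and the collagen chaperone Serpinh1 by 0.082, all with overlapping groups.

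Of 20 tested proteoglycans and fibril-associated proteins, 1 fell, Dcn, decorin, which binds collagen I (difference -1.07, SE 0.17, limma adjusted p = 0.0231), and 0 rose. Its values were 9.31, 9.04 and 9.39 with EGCG and 10.29, 10.52 and 10.15 with water, wide apart in every rat. The call was lost without EGCG_228, EGCG_234 or water_227 (adjusted p = 0.0803, 0.134 and 0.0946) and with median scaling (0.103). Lum, lumican, which spaces collagen fibrils, differed by -0.71 (adjusted p = 0.11) and Ltbp1, which stores latent TGF-beta in the matrix, by -0.54 (adjusted p = 0.209). The median of the list was -0.34, and among all named genes 0.446% were called lower. Of 12 tested collagen and laminin receptors, 0 passed. The nearest were Cd44, a hyaluronan receptor, at -0.37 (adjusted p = 0.359), Itgb1, the beta-1 integrin, at -0.39 (0.417), and the collagen receptor Ddr1 at -0.32 (0.63), which was -0.13 without EGCG_234, -0.19 without water_224 and -0.50 without EGCG_228. Among 13 tested regulators of collagen transcription, 1 fell, Ccn2, connective tissue growth factor (difference -1.93, SE 0.24, adjusted p = 0.00976), and 0 rose. Of the 13, 10 were below 0 and 3 above 0, with a median of -0.11. Those above 0 were Nfib, Tgfbr1 and Smad7 (0.22, 0.12 and 0.074). The EGCG rats lay entirely below the water rats for 5 of the 13 and entirely above them for 0. Among all named genes the shares were 8.23% downward and 8.25% upward. Tgfb2 and the mesenchymal factor Tcf21 differed by -0.47 and -0.43 (adjusted p = 0.378 and 0.321), with separate groups, and Tgfb2 was -0.26 without water_237. Tgfb1 differed by -0.54 (SE 0.21, limma adjusted p = 0.39). Its groups were separate only by the small gap between EGCG_234 (7.41) and water_237 (7.44), and water_224 (8.27) was the highest rat. The TGF-beta mediator Smad4 differed by -0.11 with groups that were separate too, and Smad2 by -0.083 with groups that overlapped (adjusted p = 0.872 and 0.905).

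**Figure D4:**
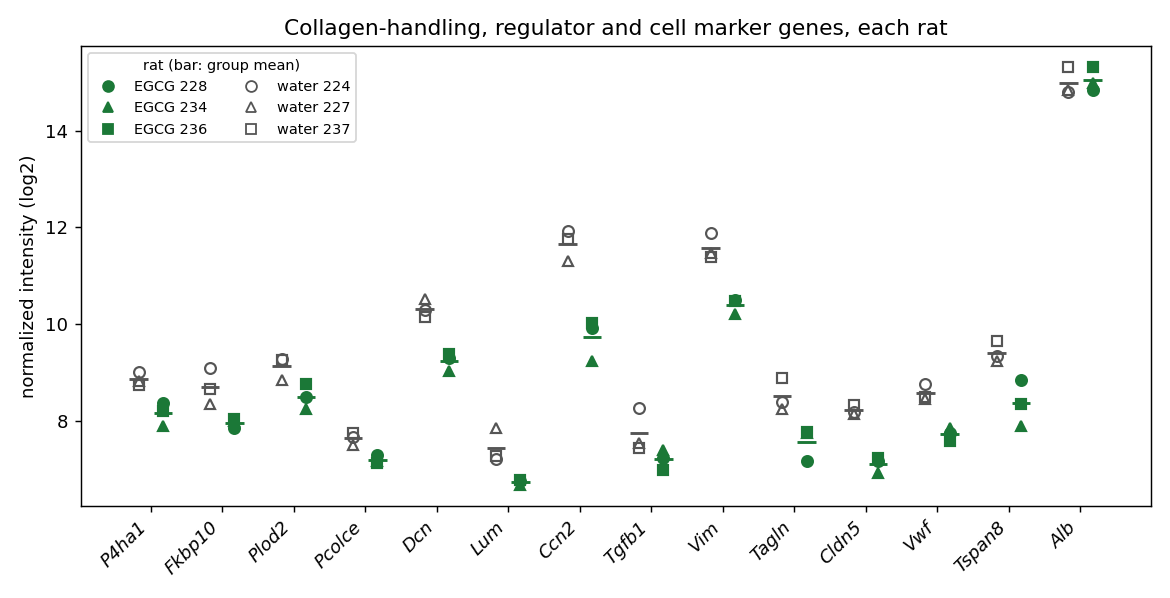
Normalized log2 intensity (vertical axis) of 4 collagen-handling genes, Dcn, Lum, Ccn2, Tgfb1 and markers of other cells, for each EGCG rat (filled) and water rat (open), with bars for group means. Ccn2 runs from 9.24 to 10.04 with EGCG and from 11.30 to 11.93 with water, while Alb overlaps.

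Markers of other cell types were read beside the matrix genes. Among all named genes tested, 48.9% had a difference below 0, 0.446% were called lower and 0.12% higher. Of 11 tested stellate cell and myofibroblast markers, 8 had a difference below 0 and 1 fell, Vim, vimentin (-1.18, SE 0.18, limma adjusted p = 0.0231). The call was lost without EGCG_228, EGCG_234 or water_227 and with median scaling (adjusted p = 0.0709, 0.127, 0.0792 and 0.131). The summed intensity of the 11 was 3168 to 3478 with EGCG and 5184 to 6243 with water, but Vim held much of it. Without Vim, a sum added after seeing the data, the other 10 gave 1973 to 2024 against 2333 to 2560, and the median difference of the list was -0.19. Of 8 tested endothelial markers, 7 were below 0 and 2 fell, Cldn5, a tight junction protein of vessels (-1.11, SE 0.13, adjusted p = 0.0089), and Vwf (-0.84, SE 0.15, adjusted p = 0.0332), whose call was lost with median scaling or without any rat but EGCG_236 (adjusted p = 0.0784 to 0.127). The endothelial sum was 2876 to 2929 with EGCG and 3725 to 4295 with water, or 2524 to 2575 against 3089 to 3567 without Cldn5 and Vwf. The 8 tested cholangiocyte markers summed to 5234 to 6665 against 7872 to 9847, with 7 below 0 and 0 past the threshold. Their median difference was -0.60. Krt19 differed by -1.39 with overlapping groups and Tspan8 by -1.04 with separate groups (limma adjusted p = 0.172 and 0.0917). Slc4a2, the 1 above 0, differed by 0.25. Of 10 pancreas and adipose markers with a probe, 5 were tested, 5 of them below 0, and 0 passed. The tested ones summed to 1215 to 1411 against 2042 to 2339, but Cfd held much of it. Cpa1, Cfd and Cela1 differed by -1.23, -0.705 and -0.705, while Adipoq and Ctrb1 differed by only -0.13 and -0.015. The sums overlapped between the groups for the 3 tested portal fibroblast markers (2936 to 4328 against 2917 to 4986), 1 of which is Mfap4 itself, for the 8 macrophage markers (7704 to 9716 against 9381 to 12918), and for the 6 of smooth muscle and mesothelium (754 to 921 against 906 to 1138). Single genes of these lists had separate groups without passing. These were 2 portal fibroblast and 2 smooth muscle and mesothelium markers downward, and 3 macrophage markers downward and 1 upward. Among all named genes the shares were 8.23% downward and 8.25% upward. Actg2, a smooth muscle actin, and Msln, of mesothelium, differed by -0.66 and -0.96 (limma adjusted p = 0.0836 and 0.0909). Smtn, Upk1b, Lmod1 and Gpm6a of the same list differed by -0.099, -0.053, 0.009 and 0.005. The median of that list was -0.076. Of the macrophage genes, Marco was higher with EGCG (1.03, adjusted p = 0.131), while Cd14, C1qc and C1qb were lower (-0.69, -0.48 and -0.43, adjusted p = 0.23, 0.39 and 0.479). No marker had an intensity of 0, the lowest value on any array being 53.4. The part of these cell types in the matrix differences was not tested.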

How the data were processed

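RNA from 6 livers was hybridized to 1 Illumina array each. The authors deposited non-normalized bead intensities (linear scale) for 22523 probes and a table of normalized intensities, whose method is not given in the sources used here. The non-normalized table was background-corrected (limma normexp, offset 50), quantile normalized between arrays and converted to log2. This offset shrinks differences of dim probes. The filter asked for a mean log2 of at least 6.39, the 40th percentile, and kept 13514 probes and 9193 named genes. Differences were tested with limma (lmFit, eBayes with an intensity trend, two-sided, no covariates) over all 6 arrays and Benjamini-Hochberg adjusted over all kept probes, with a threshold of 0.05. R 4.3.3 and limma 3.58.1 were used, and the fit was tested on simulated data. Symbols came from the platform annotation, which named 13793 probes with 1 symbol each and left 8730 unnamed. No slide or scan date is given in the sources used here, so a batch that follows the groups cannot be told apart from them.

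The genes, lists and rules were chosen with earlier results of these data known. Values in every rat are given for genes past the threshold, the 12 with the smallest unadjusted p, the 10 brightest, the 3 with the largest positive difference and a set of key genes. Of each context list the called genes and the 3 with the smallest p are named, and those of the marker lists enter the alternatives too. Other genes named (the remaining matrix genes, Plod2, P4ha2, Plod1, Plod3, Serpinh1, Crtap, Ppib, Adamts2, P4hb, Smad2, Smad4, Smad7, Nfib, Tgfbr1, Tgfb1 and the marker genes) were chosen after their values were seen. Alternatives covered background correction, normalization, filter, variance model, array weights, probe choice, the authors' normalized intensities and each rat left out.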

Additional observations from a re-analysis of the deposited data

How the results depend on the processing

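The 11 settings other than leaving out a rat kept Fbln1 as the only matrix gene called, except the filter at the 60th percentile and the fit without an intensity trend, which each called 0 with limma (Fbln1 adjusted p = 0.0555 and 0.0567, beside 11 and 13 genes lower at an unadjusted p under 0.05). With single rats left out the count of genes called lower ran from 0 to 1. No setting called a matrix gene higher. The median difference of the tested genes was -0.11 over 53 genes without the filter and -0.36 over 26 genes with the stricter one, since the filter sets which dim probes are counted, and ran from -0.24 to -0.17 with single rats left out. Differences near 0 changed sign, none of them called: with array weights Col5a1 was 0.066 and Thbs2 0.012. With single rats left out the ranges were -0.045 to 0.073 for Col14a1, -0.092 to 0.37 for Col18a1, -0.11 to 0.11 for Col5a1, -0.26 to 0.25 for Fbln5, -0.41 to 0.12 for Fn1, -0.15 to 0.21 for Loxl2, -0.039 to 0.14 for Mfap2, -0.16 to 0.031 for Thbs2 and, among markers, -0.14 to 0.020 for the mesothelial Upk1b. The 28 matrix genes named by rule and 35 context and marker genes gave 1061 pairs with a setting, of which 1010 kept direction and side of the threshold, 21 lost a call, 12 gained one and 18 changed sign. The gained calls were of Actg2, Cela1, Cpa1, Lum, Marco, Msln, Tagln and Ttr, none a matrix gene. The background moved more: over all named genes 41 were called lower and 11 higher, but 88 and 53 with array weights, 5 and 3 without EGCG_228, 5 and 2 without EGCG_234, 9 and 2 without water_227, 26 and 8 without water_237, and 73 and 89 without EGCG_236, where higher calls outnumbered lower ones. No paired analysis was possible because the rat numbers in the labels differ between the groups. Dim probes such as Col1a1 and Eln lie close to the array medians, which limits what their differences can show.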

Other observations

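Among the proteoglycans and fibril-associated proteins, Tgfbi, a secreted protein induced by TGF-beta, was 1 of 3 tested genes with a difference above 0, against 17 below 0. It was picked out after its value was seen. It differed by 0.48 (SE 0.20, limma adjusted p = 0.435), with overlapping groups, and was the only 1 of the 20 tested with an unadjusted p under 0.05 and a higher value, while 9 had one with a lower value. Among all named genes the shares at that level were 5.28% higher and 6.31% lower.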
